A study of Mus musculus with 18 samples.

Results

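Splenic B cells of ovalbumin-sensitized mice were profiled by bulk RNA-Seq after infusion of ovalbumin nanoparticles (OVA NPs) or PBS. The 6 libraries described here, 3 OVA NP and 3 PBS, were picked by their titles from the 18 of the study, and all 14200 genes with enough counts to be tested, of 55491 in the table, were examined by function. Every mouse group carried the same allergy model. Female BALB/cJ mice that were 4–6 weeks old at the start received 20 μg OVA with 1 mg alum i.p. on days 0 and 14. OVA NP–treated mice then received 2.5 mg of poly(lactide-co-glycolide) particles loaded with OVA i.v. on days 28 and 42. PBS controls received 100 μL PBS on the same days, so they were sensitized rather than naive mice. A further 3 splenic libraries came from mice given 100 μg soluble OVA, and 6 Peyer's patch libraries came from OVA NP– and PBS-treated mice. Those libraries are used below only to show where the splenic response differed from theirs or was shared with them. Spleens were taken on day 44, at 10–12 weeks of age and before any oral challenge, and B cells were enriched by magnetic negative selection after red cell lysis. The labels call the libraries biological replicates but do not say how many mice stand behind each, so p-values cover the spread between these 3 libraries per group.

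B cells recognize intact antigen through surface immunoglobulin and take it up for presentation to T cells. In the spleen most are resting follicular B cells, which recirculate, and marginal zone B cells, which border the blood-filled sinus. After contact with antigen and T cell help, some enter germinal centers, where they divide fast, mutate their immunoglobulin genes, and switch class. Others become plasma cells, which expand the endoplasmic reticulum to secrete antibody. Dividing lymphocytes raise ribosome, nucleotide, and lipid synthesis, while resting ones express receptors and transcription factors that hold them in circulation.

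Total counts ran from 16813558 to 25474996 in the OVA NP libraries and from 21504233 to 23969127 in the PBS libraries, so that 3 counts equaled 0.118 to 0.178 CPM (counts scaled per megacount of library). All pan-B cell genes tested (7 of 7, *Cd79a* among them) were high in every library, and none was called different. In each sentence below, library values are in CPM in the order of replicates 1, 2, and 3. A gene was called when its adjusted p was below 0.05 and its absolute log2 fold change exceeded 0.25. By that rule 8.6% of all genes tested were called higher after OVA NPs and 6.35% lower, against which the counts in each gene group are to be read. The 2 groups of libraries did not overlap, in either direction, in 37.5% of all genes tested. Among called genes they did not overlap in 1198 of 1221 higher and 893 of 902 lower genes. Lack of overlap in a called gene named below is therefore usual and adds little to its call. The rises were larger than the falls. The median size of change was 0.48 on the log2 scale among higher genes and 0.38 among lower genes, and 287 higher genes but 55 lower genes passed a 2-fold change (1 on the log2 scale). Without OVA NP replicate 2 the number of lower genes was 593 rather than 902.

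**Figure D1:**
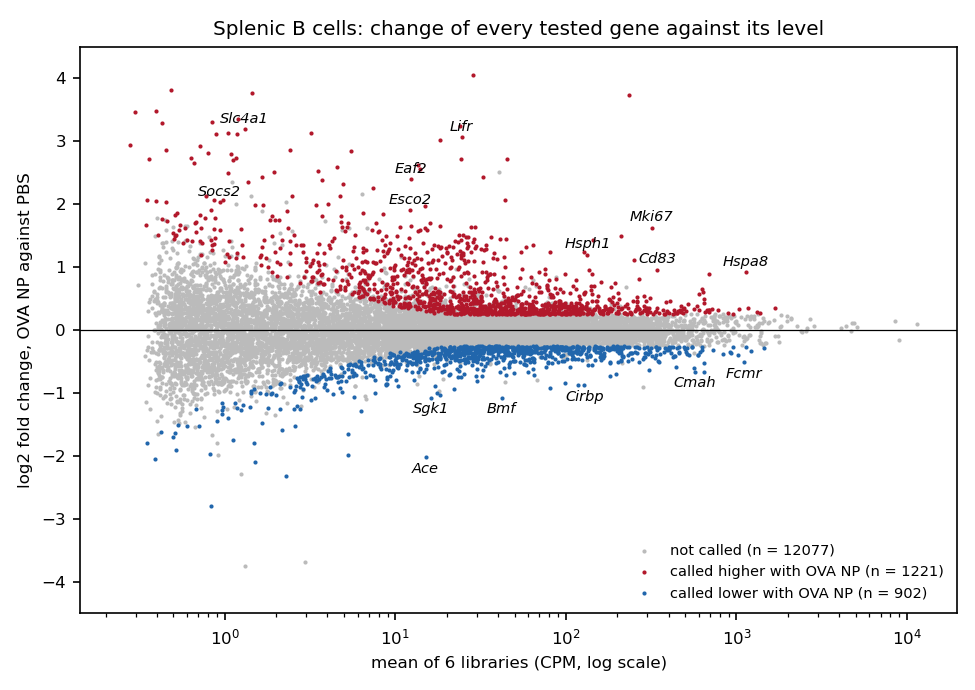
Each point is 1 of the tested genes, with its mean CPM over the 6 splenic libraries on a log axis and its log2 fold change (OVA NP against PBS) on the vertical axis. Red points were called higher, blue points lower, and gray points were not called, and 4 genes lie outside the plotted range. Above 10 CPM the highest red point is *Slpi* (4.05) and the lowest blue point is *Ace* (-2.02).

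The receptor gene *Lifr*, which encodes the receptor for leukemia inhibitory factor, had the smallest adjusted p of all genes. It stood at 42.2, 41.6, and 47.4 CPM in the OVA NP libraries and 5.06, 5.87, and 4.63 CPM in the PBS libraries (log2 fold change 3.07 ± 0.10 SE, adjusted p = 2.21e-10). All 3 OVA NP libraries lay far above all PBS libraries. Genes outside the lists below that also rose included *Gnaz*, a G protein α subunit, and *Bcat1*, which starts the breakdown of branched-chain amino acids in the cytosol. *Gnaz* went from 0.266, 0.624, and 1.06 CPM in the PBS libraries to 5.99, 6.25, and 5.05 CPM in the OVA NP libraries (log2 fold change 3.14 ± 0.34 SE, adjusted p = 3.66e-05). *Bcat1* went from 1.15, 0.999, and 1.71 CPM to 9.78, 6.94, and 6.58 CPM (log2 fold change 2.59 ± 0.25 SE, adjusted p = 1.01e-05). Neither overlapped between the groups. *Bmpr1a*, a type I receptor for bone morphogenetic proteins, was at 5.4, 3.1, and 4.28 CPM in the OVA NP libraries and 0.665, 0.125, and 0.972 CPM in the PBS libraries (log2 fold change 2.87 ± 0.48 SE, adjusted p = 0.00252).

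Of 16 germinal center genes tested, 11 were called higher and none lower, with a median log2 fold change of 1.90 against 0.00 over all genes. *S1pr2*, a receptor that confines germinal center B cells to the follicle, stood at 47, 41.7, and 38.3 CPM in the OVA NP libraries and 3.95, 3.46, and 12 CPM in the PBS libraries (log2 fold change 2.72 ± 0.53 SE, adjusted p = 0.0334). *Mybl1*, a transcription factor of dividing germinal center cells, stood at 86.4, 79.9, and 68.8 CPM in the OVA NP libraries and 8.78, 5.79, and 21.5 CPM in the PBS libraries (log2 fold change 2.72 ± 0.51 SE, adjusted p = 0.0315). In both genes the OVA NP libraries were above the PBS libraries, and PBS replicate 3 was the highest control. *Bcl6*, the repressor that defines the germinal center program, was at 101, 114, and 112 CPM in the OVA NP libraries and 98.2, 82.2, and 97.8 CPM in the PBS libraries (log2 fold change 0.23 ± 0.07 SE, adjusted p = 0.042) and missed the fold-change cutoff, which it passed without OVA NP replicate 1 (0.29). The number of calls depended on single libraries. The list held 12 called genes without PBS replicate 3, but 6 without OVA NP replicate 1, 4 without OVA NP replicate 2, 7 without OVA NP replicate 3, and 5 without PBS replicate 1 or 2. Without each library in turn the log2 fold change of *S1pr2* ranged from 2.41 to 3.51 and that of *Mybl1* from 2.37 to 3.43. Both of these calls were lost in 5 of the 6 omissions, with no count filter, and with the replicate number as a block.

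Of 14 genes of somatic hypermutation and its repair, 8 were called higher and none lower (median 0.39). *Hmces*, which shields abasic sites, was at 84.9, 76, and 69.5 CPM in the OVA NP libraries and 28.7, 28.1, and 40.4 CPM in the PBS libraries (log2 fold change 1.24 ± 0.16 SE, adjusted p = 0.00368). *Neil1*, a DNA glycosylase also counted in the germinal center list, was at 56.7, 55.5, and 50.5 CPM in the OVA NP libraries and 23.9, 21.9, and 28.3 CPM in the PBS libraries (log2 fold change 1.13 ± 0.09 SE, adjusted p = 3.89e-06). Neither gene overlapped between groups. *Exo1*, an exonuclease of mismatch repair, and *Polh*, a translesion polymerase, rose by 1.08 and 0.89 on the log2 scale (adjusted p = 0.00023 and 9.86e-06). Of 14 end-joining factors, which seal switch breaks, 2 were called higher, *H2ax*, the histone variant phosphorylated at breaks (log2 fold change 0.89, adjusted p = 5.49e-06), and *Lig4*, the ligase (0.39, adjusted p = 0.00706), and the median was 0.03.

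Genes of plasma cell differentiation rose in part. Among 15 tested, 8 were called higher and none lower (median 0.52). *Eaf2*, a partner of the elongation factor ELL2, was at 21.5, 21.3, and 19.3 CPM in the OVA NP libraries and 3.86, 2.96, and 4.95 CPM in the PBS libraries (log2 fold change 2.40 ± 0.16 SE, adjusted p = 8.13e-07). *Xbp1*, the transcription factor of the secretory program, was at 121, 104, and 108 CPM in the OVA NP libraries and 65.9, 57.7, and 66.1 CPM in the PBS libraries (log2 fold change 0.81 ± 0.07 SE, adjusted p = 6.52e-06). *Jchain*, which joins polymeric immunoglobulin, was at 323, 316, and 295 CPM in the OVA NP libraries and 145, 87.5, and 101 CPM in the PBS libraries (log2 fold change 1.49 ± 0.21 SE, adjusted p = 0.0115). In these 3 genes the lowest OVA NP library was above the highest PBS library. Without OVA NP replicate 1 the *Jchain* call was lost, with a log2 fold change of 1.34 to 1.72 over the 6 omissions. The plasma cell surface marker *Sdc1* (CD138) was at 13.7, 13.8, and 14.8 CPM in the OVA NP libraries and 17.1, 14.2, and 11.9 CPM in the PBS libraries, and its groups overlapped.

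All 50 mitosis and kinetochore genes tested were called higher (median 1.30), as were 41 of 50 DNA replication genes (median 0.64). The other 9 replication genes were not called, and none of either list was lower. *Mki67*, the marker of cycling cells, was at 573, 463, and 407 CPM in the OVA NP libraries and 152, 133, and 180 CPM in the PBS libraries (log2 fold change 1.63 ± 0.18 SE, adjusted p = 0.00359). *Nek2*, a kinase of centrosome separation, was at 47, 39.9, and 39.5 CPM in the OVA NP libraries and 13.5, 12.7, and 14.3 CPM in the PBS libraries (log2 fold change 1.64 ± 0.09 SE, adjusted p = 1.24e-07). *Top2a*, which untangles sister chromatids, was at 250, 202, and 183 CPM in the OVA NP libraries and 78.9, 74.1, and 82.2 CPM in the PBS libraries (log2 fold change 1.43 ± 0.12 SE, adjusted p = 0.000258). No group overlapped in these genes, and OVA NP replicate 1 was the highest library for each. Summed over the mitosis list, the libraries held 3337, 2768, and 2454 CPM after OVA NPs and 1323, 1223, and 1336 CPM after PBS, a 2.21-fold difference of the means (exact permutation p = 0.1, the smallest that 3 against 3 libraries allow). Among replication genes, *Ccne2* (cyclin E2) rose by 1.50, *Rrm2*, a subunit of ribonucleotide reductase, by 1.32, and *Uhrf1*, which guides maintenance methylation, by 1.24 on the log2 scale. The cohesin acetyltransferase *Esco2* rose by 1.91. Genes of G1 control moved both ways, 7 of 24 higher and 5 lower. *Cdkn2c*, a CDK inhibitor, rose by 1.11 and *Ccnd3* (cyclin D3) by 0.65, whereas *Klf2*, a factor of lymphocyte quiescence, fell by 0.49 (adjusted p = 0.000232).

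Promoters of these division genes shared sequence features. The lists were drawn up by function and not by these features. The share within a list therefore describes its genes and does not measure the response to OVA NPs. Promoter windows ran from 250 bases before to 50 bases after the start (RefSeq, GRCm38.p6) and were found for 10118 of the 14200 genes. The cell cycle homology region (CHR, searched as TTTGAA and TTCGAA on either strand) was present in 14.5% of all these windows, in 24.0% of those of called higher genes, in 16.7% of those of called lower genes, and in 73.2% of those of the mitosis list (30 of 41). The NF-Y box (CCAAT) was in 39.2% of all windows and in 70.7% of the mitosis windows. The E2F motif (TTTGGCGC, TTTCCCGC, TTTCGCGC, or TTTGCCGC) was in 4.23% of all windows, in 4.88% of mitosis windows, and in 32.5% of replication windows (13 of 40). With only the 150 bases before the start, CHR was in 29.3% of mitosis windows against 6.4% of all, and E2F in 17.5% of replication windows against 2.33% of all. A match describes the letters in the window and is not evidence of binding. The following promoters are shown for 3 mitosis genes that held both CHR and NF-Y (26 called members did), with both motifs in capitals, and for *Pola1*, the catalytic subunit of DNA polymerase α (log2 fold change 0.93), with its E2F motif and NF-Y box in capitals. *Ncapg* (condensin subunit, 1.64) lies at chr5:45669675-45669974, plus strand, *Mki67* at chr7:135716330-135716629, minus strand, *Kif23* (a kinesin of cytokinesis, 1.51) at chr9:61946750-61947049, minus strand, and *Pola1* at chrX:93632106-93632405, minus strand.
Ncapg: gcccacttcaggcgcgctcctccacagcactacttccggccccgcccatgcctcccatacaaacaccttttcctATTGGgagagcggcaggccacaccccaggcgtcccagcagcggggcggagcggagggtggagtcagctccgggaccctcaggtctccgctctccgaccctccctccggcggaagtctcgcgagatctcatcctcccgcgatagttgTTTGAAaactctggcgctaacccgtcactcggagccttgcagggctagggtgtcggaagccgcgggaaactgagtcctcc
Mki67: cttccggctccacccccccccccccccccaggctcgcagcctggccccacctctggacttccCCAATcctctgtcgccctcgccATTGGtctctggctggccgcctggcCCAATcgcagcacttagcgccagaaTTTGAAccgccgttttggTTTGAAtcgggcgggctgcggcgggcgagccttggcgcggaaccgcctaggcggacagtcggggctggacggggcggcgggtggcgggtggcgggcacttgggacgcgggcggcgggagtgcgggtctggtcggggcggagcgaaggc
Kif23: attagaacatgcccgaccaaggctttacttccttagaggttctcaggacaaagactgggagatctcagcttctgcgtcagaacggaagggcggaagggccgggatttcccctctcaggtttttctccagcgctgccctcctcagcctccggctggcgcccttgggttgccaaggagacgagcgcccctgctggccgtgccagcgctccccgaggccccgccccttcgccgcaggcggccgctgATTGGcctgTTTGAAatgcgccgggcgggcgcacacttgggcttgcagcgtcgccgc
Pola1: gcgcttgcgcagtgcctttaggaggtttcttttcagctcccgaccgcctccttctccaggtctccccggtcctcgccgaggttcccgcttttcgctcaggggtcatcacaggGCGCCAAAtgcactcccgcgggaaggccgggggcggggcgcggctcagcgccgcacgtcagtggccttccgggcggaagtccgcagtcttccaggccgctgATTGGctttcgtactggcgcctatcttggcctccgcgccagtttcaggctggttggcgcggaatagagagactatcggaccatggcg

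**Figure D2:**
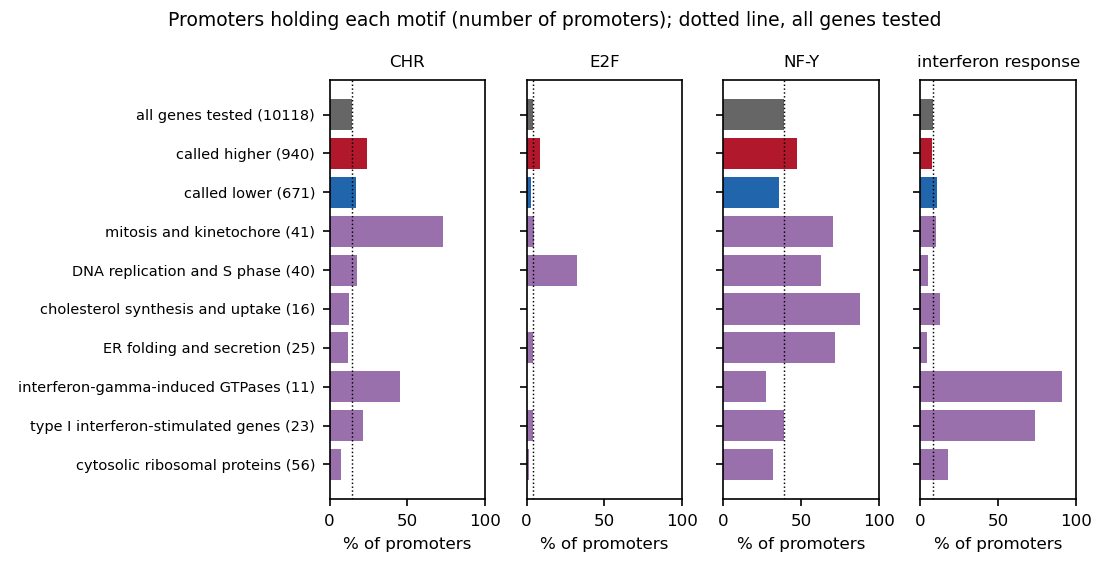
Bars give the percent of promoter windows that hold each motif (horizontal axes, 0 to 100%) in all tested genes, called genes, and 7 gene lists, with the number of windows in parentheses and a dotted line at the share in all genes. CHR stands out in the mitosis list (73.2% against 14.5%), E2F in the replication list (32.5% against 4.23%), NF-Y in the cholesterol list (87.5% against 39.2%), and the interferon response motif in both interferon lists (90.9% and 73.9% against 7.97%).

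Growth and biosynthesis genes shifted upward by small amounts. Of 76 cytosolic ribosomal protein genes, 21 were called higher and none lower, with a median log2 fold change of 0.21, so most lay under the fold-change cutoff. *Rpl24*, of the large subunit, was at 208, 218, and 201 CPM in the OVA NP libraries and 140, 157, and 151 CPM in the PBS libraries (log2 fold change 0.49 ± 0.06 SE, adjusted p = 4.84e-05), and *Rps26*, of the small subunit, was at 537, 556, and 516 CPM in the OVA NP libraries and 417, 389, and 431 CPM in the PBS libraries (log2 fold change 0.38 ± 0.06 SE, adjusted p = 0.000344). Both were separated between groups. Mitochondrial ribosomal protein genes followed, with 16 of 78 higher (median 0.16), as did ribosome biogenesis (7 of 31, with the nucleolar protein *Npm1* up 0.43) and translation factors (7 of 23, with the cap-binding *Eif4e* up 0.47). Aminoacyl-tRNA synthetases were called in 3 of 20 and amino acid uptake genes in 4 of 12, among them the leucine transporter *Slc7a5* (0.41). No member of these 6 lists was called lower.

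Nucleotide and energy metabolism showed the same direction. In one-carbon and nucleotide synthesis 12 of 23 genes were higher (median 0.27). *Psat1*, which makes serine, was at 50.5, 45.9, and 43.3 CPM in the OVA NP libraries and 23.5, 25, and 27 CPM in the PBS libraries (log2 fold change 0.89 ± 0.08 SE, adjusted p = 6.45e-06), with the groups apart. Of 22 glycolysis genes 5 were higher, *Gapdh* by 0.54 and *Ldha*, which turns pyruvate into lactate, by 0.47, and none lower. The glucose transporters *Slc2a1* and *Slc2a3* had log2 fold changes of -0.08 and -0.12 and were not called. Nuclear genes of oxidative phosphorylation were higher in 42 of 76, with a median of 0.27, for example *Atp5j2*, an ATP synthase subunit (0.47). None of the 13 mRNAs encoded by mitochondrial DNA was called (median 0.10), although 1 of the 15 genes tested on that DNA was called higher. All mitochondrially encoded genes together took 2.82–3.39% of the counts, with overlapping groups.

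Of 23 genes of cholesterol synthesis and uptake, 12 were higher, 11 were not called, and none was lower (median 0.33). *Idi1*, which isomerizes isopentenyl diphosphate, was at 47.5, 37.8, and 47.9 CPM in the OVA NP libraries and 25.1, 25, and 24.4 CPM in the PBS libraries (log2 fold change 0.84 ± 0.09 SE, adjusted p = 2.08e-05). *Sqle*, squalene epoxidase, was at 26.8, 22.4, and 30.3 CPM in the OVA NP libraries and 17.4, 12.8, and 16.4 CPM in the PBS libraries (log2 fold change 0.78 ± 0.14 SE, adjusted p = 0.00209). *Fdps* and *Cyp51*, which act before and after squalene, rose by 0.65 and 0.60. In each of these the groups did not overlap, and OVA NP replicate 2 was the lowest treated library. The NF-Y box was present in 87.5% of the pathway's promoters (14 of 16). In contrast, *Abca1*, which exports cholesterol from cells, was at 170, 178, and 180 CPM in the OVA NP libraries and 254, 246, and 235 CPM in the PBS libraries and fell (log2 fold change -0.47 ± 0.05 SE, adjusted p = 3.04e-05). *Mylip*, which degrades the LDL receptor, fell by 0.30 (adjusted p = 0.00139).

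Of 32 endoplasmic reticulum genes 18 were higher (median 0.28), with *Sdf2l1*, an unfolded-protein-response target, at 49.6, 42.3, and 41.8 CPM in the OVA NP libraries and 23, 16.9, and 23.1 CPM in the PBS libraries (log2 fold change 1.09 ± 0.12 SE, adjusted p = 0.000178) and *Hspa5* (BiP) up 0.46. Of 12 heat shock chaperones 10 were higher (median 0.61). *Hspa8*, the constitutive HSP70, was at 1584, 1558, and 1304 CPM in the OVA NP libraries and 745, 795, and 816 CPM in the PBS libraries (log2 fold change 0.92 ± 0.07 SE, adjusted p = 4.19e-06). *Hsph1* (HSP110) was at 199, 201, and 159 CPM in the OVA NP libraries and 86.2, 81, and 76.5 CPM in the PBS libraries (log2 fold change 1.20 ± 0.09 SE, adjusted p = 2.74e-05). *Dnaja1*, an HSP40 cochaperone, was at 330, 365, and 336 CPM in the OVA NP libraries and 191, 201, and 192 CPM in the PBS libraries (log2 fold change 0.82 ± 0.06 SE, adjusted p = 8.13e-07). All treated libraries were above all control libraries. The stress-inducible pair *Hspa1a* and *Hspa1b* rose by 1.99 and 1.82, but the split of reads between these near-identical copies is uncertain. Without PBS replicate 2 *Hspa1b* was not called, and its log2 fold change ranged from 1.46 to 2.12 over the 6 omissions. *Hsf1*, the heat shock transcription factor, was not called (log2 fold change -0.07 ± 0.06 SE, adjusted p = 0.514). *Cirbp*, an RNA-binding protein named for its induction by cold, moved the other way, at 85.7, 86.6, and 99.5 CPM in the OVA NP libraries and 160, 167, and 172 CPM in the PBS libraries (log2 fold change -0.87 ± 0.06 SE, adjusted p = 1.25e-06). Proteasome subunits were higher in 22 of 40 (median 0.27), for example the lid subunit *Psmd14* (0.42) and the immunoproteasome subunit *Psmb9* (0.40).

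**Figure D3:**
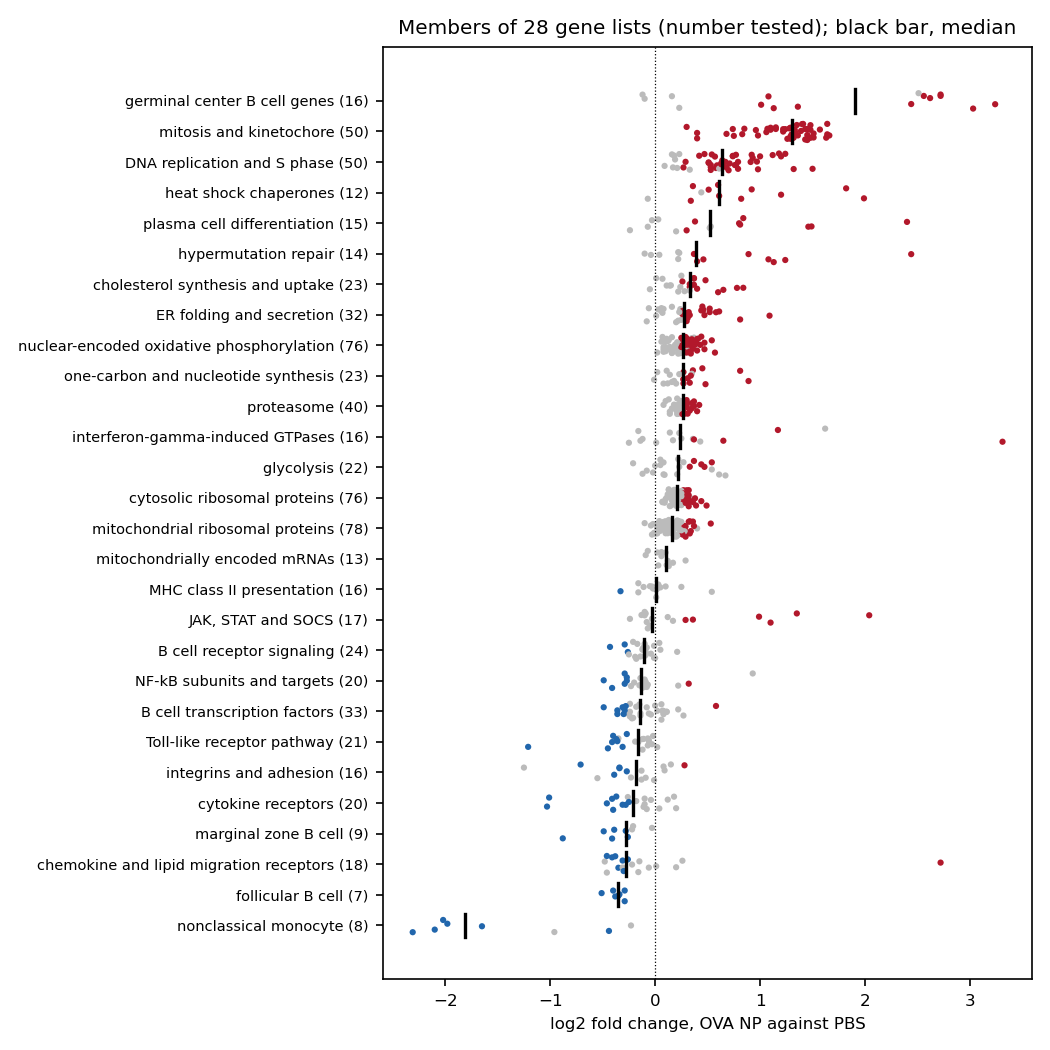
Each row is a gene list with the number of members tested in parentheses. Points are members at their log2 fold change (OVA NP against PBS), red if called higher, blue if called lower, and gray if not called, and black bars are medians. Germinal center, division, chaperone, and biosynthesis lists lie to the right of 0, with medians up to 1.90, and receptor, adhesion, and resting B cell lists lie to the left, with medians down to −0.35 apart from the nonclassical monocyte list (−1.81).

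Few interferon-responsive genes changed. Of the type I list, 3 of 34 interferon-stimulated genes were called higher (median 0.19), against 4 of 16 GTPase-family and related genes known for induction by interferon γ (median 0.24), and no member of either list was lower. *Tgtp2*, an immunity-related GTPase, was at 65.9, 68.7, and 45.3 CPM in the OVA NP libraries and 26.9, 30.1, and 22.8 CPM in the PBS libraries (log2 fold change 1.17 ± 0.20 SE, adjusted p = 0.0148). Its near-identical neighbor *Tgtp1* may share its reads. *Gbp7*, a guanylate-binding protein, was at 47.1, 47.8, and 41.8 CPM in the OVA NP libraries and 31.1, 31.7, and 24 CPM in the PBS libraries (log2 fold change 0.65 ± 0.10 SE, adjusted p = 0.000965). The groups did not overlap in either gene. The *Tgtp2* call was lost without OVA NP replicate 1 or PBS replicate 1, with log2 fold changes of 1.06 to 1.34 over all omissions. The guanylate-binding genes *Gbp2* and *Gbp4* were not called (0.14 and -0.12), nor was *Irf7* (0.13). In the class I antigen presentation list 7 of 15 genes were higher, among them *B2m* (0.32) and *Nlrc5*, the transactivator of class I genes (88.6, 104, and 90.1 CPM in the OVA NP libraries and 76.6, 76.7, and 62.8 CPM in the PBS libraries, log2 fold change 0.38 ± 0.09 SE, adjusted p = 0.0113).

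The interferon response motif (AAANNGAAA) was in 7.97% of all promoter windows, in 7.77% of those of called higher genes, in 10.6% of those of called lower genes, in 73.9% of type I windows (17 of 23), and in 90.9% of the GTPase windows (10 of 11). With the 150-base window the type I share was 47.8% against 3.59% of all. CHR was also found in 45.5% of the GTPase windows (5 of 11). The windows of *Tgtp2* (chr11:49064163-49064462, minus strand) and *Gbp7* (chr3:142530086-142530385, plus strand) are shown because both genes rose and held the motif, which is in capitals. They read as follows.
Tgtp2: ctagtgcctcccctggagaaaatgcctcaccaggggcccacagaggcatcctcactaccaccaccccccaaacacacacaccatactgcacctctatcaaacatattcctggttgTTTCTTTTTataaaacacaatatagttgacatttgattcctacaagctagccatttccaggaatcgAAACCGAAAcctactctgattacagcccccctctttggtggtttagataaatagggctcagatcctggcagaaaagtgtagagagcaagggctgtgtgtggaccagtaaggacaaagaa
Gbp7: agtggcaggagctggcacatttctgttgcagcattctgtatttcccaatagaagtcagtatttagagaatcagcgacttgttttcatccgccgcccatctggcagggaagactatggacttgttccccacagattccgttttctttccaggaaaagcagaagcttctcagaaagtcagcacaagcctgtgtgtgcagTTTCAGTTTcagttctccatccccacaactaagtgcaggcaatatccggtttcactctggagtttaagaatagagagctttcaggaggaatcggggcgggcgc

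Negative regulators of cytokine signaling rose, while cytokine receptors fell or did not pass. In the JAK, STAT, and SOCS list 6 of 17 genes were higher and none lower. *Socs1* was at 12.1, 11, and 10.3 CPM in the OVA NP libraries and 4.13, 5.25, and 6.2 CPM in the PBS libraries (log2 fold change 1.10 ± 0.16 SE, adjusted p = 0.000284). *Socs2* was at 1.66, 1.38, and 1.49 CPM in the OVA NP libraries and 0.355, 0.624, and 0.0925 CPM in the PBS libraries (log2 fold change 2.04 ± 0.48 SE, adjusted p = 0.0077). *Cish* was at 4.68, 3.15, and 4.52 CPM in the OVA NP libraries and 1.82, 1.58, and 1.43 CPM in the PBS libraries (log2 fold change 1.35 ± 0.25 SE, adjusted p = 0.00145). These 3 inhibitors of JAK signaling and *Socs3* (0.99) were separated between groups, although *Socs2* rested on low counts. Of 20 cytokine receptors 9 were lower and none higher (median -0.22). *Il5ra*, the IL-5 receptor α chain, was at 9.72, 11, and 14.8 CPM in the OVA NP libraries and 27.4, 25.3, and 20.7 CPM in the PBS libraries (log2 fold change -1.03 ± 0.16 SE, adjusted p = 0.00149). *Il9r* was at 84.5, 81.6, and 90.6 CPM in the OVA NP libraries and 115, 107, and 133 CPM in the PBS libraries (log2 fold change -0.46 ± 0.08 SE, adjusted p = 0.00145). *Tgfbr2*, the type II TGF-β receptor, was at 347, 354, and 405 CPM in the OVA NP libraries and 480, 484, and 511 CPM in the PBS libraries (log2 fold change -0.41 ± 0.06 SE, adjusted p = 0.000399). All PBS libraries exceeded all OVA NP libraries in these receptors. The IL-4 receptor chain *Il4ra* was not called (log2 fold change -0.04 ± 0.08 SE, adjusted p = 0.784). Cytokine genes were lower in 3 of 12 and higher in none, *Il12a* (-0.50) and *Il16* (-0.35) among them.

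Signaling genes of the resting B cell were mostly not called, and in each list given here more were called lower than higher. No B cell receptor signaling gene of 24 was higher and 3 were lower, with *Nfatc1*, a calcium-activated transcription factor, at 230, 239, and 278 CPM in the OVA NP libraries and 327, 333, and 344 CPM in the PBS libraries (log2 fold change -0.43 ± 0.07 SE, adjusted p = 0.000498). Among 15 inhibitory receptors 2 were lower, *Pecam1* (-0.41) and *Btla*, the inhibitory receptor for HVEM, which was at 227, 231, and 263 CPM in the OVA NP libraries and 394, 354, and 371 CPM in the PBS libraries (log2 fold change -0.63 ± 0.06 SE, adjusted p = 1.66e-05). Toll-like receptor genes were lower in 8 of 21 and higher in none, for example *Tlr1* (-0.31) and *Tlr6* (-0.41). Of 20 NF-κB subunits and targets 6 were lower and 1 higher. *Nfkbia*, the IκBα inhibitor induced by NF-κB, was at 170, 192, and 196 CPM in the OVA NP libraries and 243, 257, and 241 CPM in the PBS libraries (log2 fold change -0.41 ± 0.06 SE, adjusted p = 0.000278), and *Bcl3* was the gene that rose (0.32). Of 20 immediate-early genes 2 were higher, 4 lower, and 14 not called. *Fos* and *Fosb* rose (0.73 and 0.80), and *Egr1*, *Egr3*, *Ier2*, and *Klf6* fell (-0.34, -0.34, -0.36, and -0.36). The *Fosb* call was lost with all 9 splenic libraries in the fit.

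Some migration and adhesion genes fell. Of 18 chemokine and lipid migration receptors 7 were lower (median -0.28) and 1, *S1pr2*, was higher. *S1pr1*, which draws lymphocytes out of tissue, was at 274, 258, and 293 CPM in the OVA NP libraries and 392, 356, and 352 CPM in the PBS libraries (log2 fold change -0.41 ± 0.06 SE, adjusted p = 0.000316). *Cxcr5*, which guides B cells to follicles, was at 435, 428, and 483 CPM in the OVA NP libraries and 546, 592, and 611 CPM in the PBS libraries (log2 fold change -0.38 ± 0.06 SE, adjusted p = 0.000714). *Ccr7*, which draws lymphocytes toward T cell zones, fell by 0.35. The groups were apart in all of these. Integrins and adhesion genes were lower in 5 of 16 (*Itga4*, -0.34) and higher in 1. Among 33 B cell transcription factors 7 were lower, *Klf2* and *Ets1* (-0.36) among them, while the identity factors *Pax5* and *Ebf1* were not called (-0.21 and -0.24) except without OVA NP replicate 3 (−0.32 and −0.33). Of 3 genes in the Fc and complement receptor list that fell, *Fcmr*, the IgM receptor, was at 841, 900, and 1006 CPM in the OVA NP libraries and 1279, 1296, and 1350 CPM in the PBS libraries (log2 fold change -0.51 ± 0.07 SE, adjusted p = 0.000106), and *Cd55*, which limits complement, fell by 0.52.

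Survival genes moved in both directions. *Bmf*, a proapoptotic BH3-only gene, was at 22.5, 29.5, and 29.4 CPM in the OVA NP libraries and 60.4, 58.4, and 52.3 CPM in the PBS libraries (log2 fold change -1.07 ± 0.10 SE, adjusted p = 3.85e-05). The antiapoptotic *Bcl2* fell by 0.39, the TACI receptor *Tnfrsf13b* fell by 0.38, and *Bak1* and *Pim1* rose by 0.41 and 0.43. In all, 3 of 20 genes of this list were higher and 4 lower. The BAFF receptor gene *Tnfrsf13c* was not called (log2 fold change 0.05 ± 0.06 SE, adjusted p = 0.632). Of the p53 targets, *Sesn1* was at 126, 131, and 154 CPM in the OVA NP libraries and 232, 224, and 224 CPM in the PBS libraries (log2 fold change -0.72 ± 0.07 SE, adjusted p = 1.12e-05), whereas its relative *Sesn2* rose by 0.46 and *Trp53* itself was not called (0.02). *Sgk1*, a kinase downstream of PI3K, was at 10.4, 9.58, and 11.4 CPM in the OVA NP libraries and 20.6, 25.5, and 19.7 CPM in the PBS libraries (log2 fold change -1.07 ± 0.12 SE, adjusted p = 3.04e-05). *Cmah*, which makes the sialic acid Neu5Gc, was at 423, 408, and 489 CPM in the OVA NP libraries and 722, 728, and 639 CPM in the PBS libraries (log2 fold change -0.66 ± 0.07 SE, adjusted p = 6.59e-05). For each of these genes with library values the groups did not overlap.

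Genes for contact with T cells moved both ways. No class II presentation gene of 16 was higher, and only *Marchf1*, the ubiquitin ligase that turns over class II and CD86, was lower (-0.33). *H2-Ab1* stood at 2180, 2291, and 2646 CPM in the OVA NP libraries and 2294, 2337, and 2566 CPM in the PBS libraries, with overlapping groups. *Cd83*, an activation marker that stabilizes class II at the surface, was at 442, 436, and 485 CPM in the OVA NP libraries and 225, 218, and 256 CPM in the PBS libraries (log2 fold change 0.96 ± 0.07 SE, adjusted p = 1.25e-06). *Havcr1* (TIM-1), a marker of IL-10–producing B cells, was at 11.4, 9.98, and 11.9 CPM in the OVA NP libraries and 4.17, 3.71, and 5.83 CPM in the PBS libraries (log2 fold change 1.28 ± 0.17 SE, adjusted p = 0.000147). Genes that the paper names as markers of such cells went both ways, with *Nt5e* called higher and *Cd9* called lower here. *Cd200*, which restrains myeloid cells, was at 21.9, 24.2, and 26.7 CPM in the OVA NP libraries and 45.1, 35.9, and 39.5 CPM in the PBS libraries (log2 fold change -0.72 ± 0.10 SE, adjusted p = 0.000162). The groups were apart in *Cd83*, *Havcr1*, and *Cd200*, and in the list of 20 T cell ligands 3 were higher and 3 lower.

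**Figure D4:**
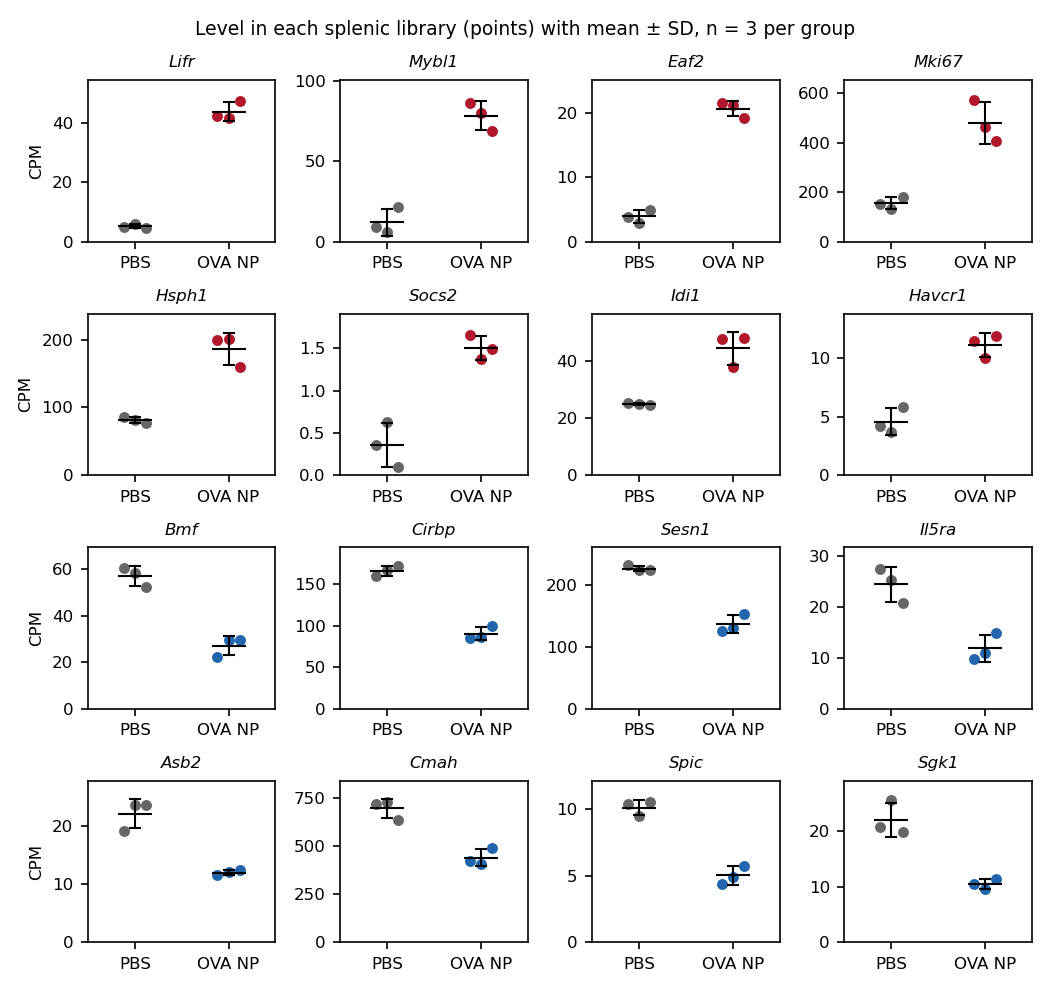
Each panel shows 1 gene, with the CPM in every splenic library as points (gray for PBS, red or blue for OVA NP genes called higher or lower) and bars for mean ± SD, n = 3 per group, on axes that start at 0. In all 16 panels the OVA NP points do not overlap the PBS points, which is usual among called genes, and *Mybl1* in PBS replicate 3 (21.5 CPM) lies above the other controls.

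The smaller lists stood as follows. Antioxidant genes were higher in 4 of 21 (thioredoxin, *Txn1*, by 0.77), splicing factors higher in 7 of 24 and lower in 1, and actin and motility genes higher in 2 of 24. Chromatin regulators were higher in 5 of 24 (*Ezh2*, the H3K27 methyltransferase, by 0.84) and lower in 2. Sterol efflux and fatty acid genes were higher in 3 of 22 and lower in 3, glycan enzymes higher in 2 of 19 and lower in 5, lysosome genes higher in 1 of 22 and lower in 2, and scavenger receptors higher in 1 of 11 and lower in 1. Among 13 immunoglobulin constant region genes 4 were higher and 1 lower. Antigen receptor segments together took 0.782 to 0.908% of the counts, with overlapping groups.

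Markers of B cell subsets and of other cells moved as well, and in bulk libraries fewer cells of a type and less RNA per cell cannot be told apart. All 7 follicular B cell markers were lower (median -0.35), and their summed level was 4639 to 5348 CPM after OVA NPs and 6238 to 6523 CPM after PBS. Marginal zone markers were lower in 6 of 9, with *Asb2* at 11.5, 12, and 12.4 CPM in the OVA NP libraries and 19.2, 23.5, and 23.5 CPM in the PBS libraries (log2 fold change -0.88 ± 0.11 SE, adjusted p = 5.98e-05). The marginal zone count was 2 without OVA NP replicate 2 and 3 without PBS replicate 2 or 3. Plasma cell markers summed to 844–883 CPM after OVA NPs and 513–599 CPM after PBS, with 3 of 7 higher. Most of the difference between these sums came from *Jchain*, whose call was lost without OVA NP replicate 1. The other 4 markers, *Sdc1* among them, were not called. Of 12 B-1 and memory-like markers 3 were higher, of 5 age-associated markers 1 was lower, and of 7 immature markers none was called. How far these shifts in markers account for the changes above was not tested.

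Some genes listed as markers of non-B cells moved too. In the nonclassical monocyte list 6 of 8 genes were lower (median -1.81). *Ace*, which encodes angiotensin-converting enzyme, was at 7.12, 6.71, and 4.28 CPM in the OVA NP libraries and 22.6, 18.9, and 30.7 CPM in the PBS libraries, with the groups apart. Their sum, mostly from *Itgal*, which B cells also express, was 234–245 CPM after OVA NPs and reached 371 CPM after PBS, with no overlap. *Spic*, a factor of red pulp macrophages, was at 4.39, 4.93, and 5.74 CPM in the OVA NP libraries and 10.4, 9.45, and 10.5 CPM in the PBS libraries (adjusted p = 0.000331). It was the 1 gene called of 5 macrophage genes tested, whose median was 0.20. The macrophage genes *Cd5l*, *C1qa*, *C1qb*, *C1qc*, *Marco*, and *Siglec1* held at most 7 counts in any library and were not tested. Which cells the *Spic* reads came from was not tested. Of 8 basophil, eosinophil, and mast cell markers 2 were higher, with *Cpa3* at 10.9, 6.37, and 6.75 CPM in the OVA NP libraries and 2.62, 2.79, and 4.58 CPM in the PBS libraries (log2 fold change 1.26 ± 0.26 SE, adjusted p = 0.00641), and their summed levels overlapped (49.1–94.1 and 43.5–58.2 CPM). The erythroid anion exchanger *Slc4a1* was at 2.43, 3.61, and 1.05 CPM in the OVA NP libraries and 0.444, 0.125, and 0.185 CPM in the PBS libraries (log2 fold change 3.19 ± 0.56 SE, adjusted p = 0.00152), and it was the only erythroid gene of 7 that was called. Neutrophil markers were not called in 7 of 7, but their sum varied widely, at 655, 532, and 186 CPM after OVA NPs and 189, 194, and 511 CPM after PBS. Most of that sum came from *Mpo*. The neutrophil genes *Retnlg*, *Cxcr2*, and *Ly6g* held at most 17 counts in any library and were not tested. T cell markers summed to 70.6–88.3 and 77.7–88.7 CPM, mostly from *Lck* (64.3, 71.1, and 83.7 CPM in the OVA NP libraries and 77.6, 73.9, and 81.9 CPM in the PBS libraries), which B cells also express, with *Cd3e* at or below 1.48 CPM. No gene of the classical monocyte, plasmacytoid dendritic cell, NK cell, platelet, or stromal lists was called. Of 6 conventional dendritic cell genes 2 were lower. Of 4 follicular helper and regulatory T cell genes tested, *Tox2* was higher and *Cxcr5*, given above as a B cell gene, was lower. From that list *Icos*, *Il21*, *Foxp3*, *Ctla4*, and *Il4* had too few counts to be tested. The part of these cells in the monocyte, mast cell, and erythroid changes was not tested.

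The comparison with soluble OVA asks whether particles changed B cells differently from the free allergen at the doses given, 2.5 mg of particles and 100 μg of protein. At the OVA loading that the paper reports for its particles, these doses hold the same amount of OVA. Among 13840 genes tested, 19 (0.137%) were higher and 14 (0.101%) lower after OVA NPs than after soluble OVA by the same rule. At an unadjusted p below 0.05 there were 1199 genes. The counts hung on single libraries. They fell to 0 and 0 without OVA NP replicate 2 (660 genes at an unadjusted p below 0.05), to 4 and 3 without soluble OVA replicate 1, and to 7 and 3 without soluble OVA replicate 3, and the lower count was 8 without OVA NP replicate 1 and 23 without soluble OVA replicate 2. In the values that follow, CPM are scaled over all 18 libraries, which shifts them slightly from those above, and both treatments share the PBS libraries.

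Of 12 heat shock chaperones 3 were called higher after OVA NPs than after soluble OVA, as were 4 of 16 genes of the GTPase list and 1 of 34 of the type I list, and none of these lists held a lower gene. The calls against soluble OVA that are named here and below each failed in at least 1 of the 6 omissions, and *Hspa8*, *Irgm2*, *Tox*, and *Mef2b* were called in 1 of the 6. *Dnaja1* was at 319, 356, and 330 CPM after OVA NPs, 226, 205, and 229 CPM after soluble OVA, and 187, 196, and 188 CPM after PBS (log2 difference 0.61 ± 0.07 SE, adjusted p = 0.00419). *Hsph1* was at 192, 196, and 156 CPM after OVA NPs, 94, 102, and 120 CPM after soluble OVA, and 84.3, 79.3, and 74.8 CPM after PBS (log2 difference 0.79 ± 0.11 SE, adjusted p = 0.0184). *Hspa8* also passed (0.53). In these chaperones soluble OVA lay between PBS and OVA NPs. *Tgtp2* was at 63.7, 66.9, and 44.4 CPM after OVA NPs, 24.1, 23.8, and 21.7 CPM after soluble OVA, and 26.3, 29.4, and 22.3 CPM after PBS (log2 difference 1.33 ± 0.15 SE, adjusted p = 0.00823). *Igtp* (0.66), *Gbp7* (0.53), *Irgm2* (0.57), and *Nlrc5* (0.61) showed the same order of OVA NP against soluble OVA, with no overlap. Part of this difference lay in soluble OVA, which changed *Igtp* by -0.29, *Irgm2* by -0.32, and *Nlrc5* by -0.22 against PBS, but *Gbp7* by 0.12. *Irgm2* was not called between OVA NPs and PBS (0.25), and those groups overlapped. *Abcg1*, a sterol exporter, was at 76, 89.3, and 84.6 CPM after OVA NPs, 58.8, 63, and 58.4 CPM after soluble OVA, and 86.4, 87.5, and 85 CPM after PBS (log2 difference 0.48 ± 0.08 SE, adjusted p = 0.016), so the soluble OVA libraries were the ones that stood apart.

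Genes lower after OVA NPs than after soluble OVA included several that both treatments had above PBS. *Socs3* was at 20.8, 18.6, and 16.3 CPM after OVA NPs, 35.7, 31.1, and 37 CPM after soluble OVA, and 7.72, 9.41, and 11 CPM after PBS (log2 difference -0.90 ± 0.11 SE, adjusted p = 0.00419). *Il4i1*, an amino acid oxidase induced by IL-4, was at 331, 318, and 352 CPM after OVA NPs, 569, 482, and 496 CPM after soluble OVA, and 242, 220, and 268 CPM after PBS (log2 difference -0.62 ± 0.08 SE, adjusted p = 0.00609). *Osbpl3*, an oxysterol-binding protein, was at 8.83, 6.93, and 6.85 CPM after OVA NPs, 15.6, 15, and 15.3 CPM after soluble OVA, and 1.86, 1.38, and 1.95 CPM after PBS (log2 difference -1.02 ± 0.14 SE, adjusted p = 0.00686). *Tox* (-0.89), *Samsn1* (-0.66), and *Mef2b* (-0.69) showed the same arrangement, with OVA NP libraries between the other groups. *Sla*, an adaptor that dampens antigen receptor signaling, was at 113, 107, and 120 CPM after OVA NPs, 159, 155, and 161 CPM after soluble OVA, and 171, 164, and 166 CPM after PBS (log2 difference -0.48 ± 0.07 SE, adjusted p = 0.00686) and the OVA NP libraries were the lowest. No mitosis or replication gene was called between the particles and soluble OVA. For *Mki67* the effect of soluble OVA against PBS was 1.63 and that of OVA NPs 1.63, on the log2 scale and with the same controls. Several lists also moved alike, with medians against PBS given here for soluble OVA and then OVA NPs. They were 2.2 and 1.9 in the germinal center list, 1.46 and 1.3 in mitosis, and 0.69 and 0.64 in replication. The cholesterol list had 0.5 and 0.33, the cytosolic ribosomal list 0.32 and 0.21, and the follicular markers -0.33 and -0.35. Heat shock chaperones (0.37 and 0.61) and the GTPase list (-0.26 and 0.24) had the larger median after OVA NPs.

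**Figure D5:**
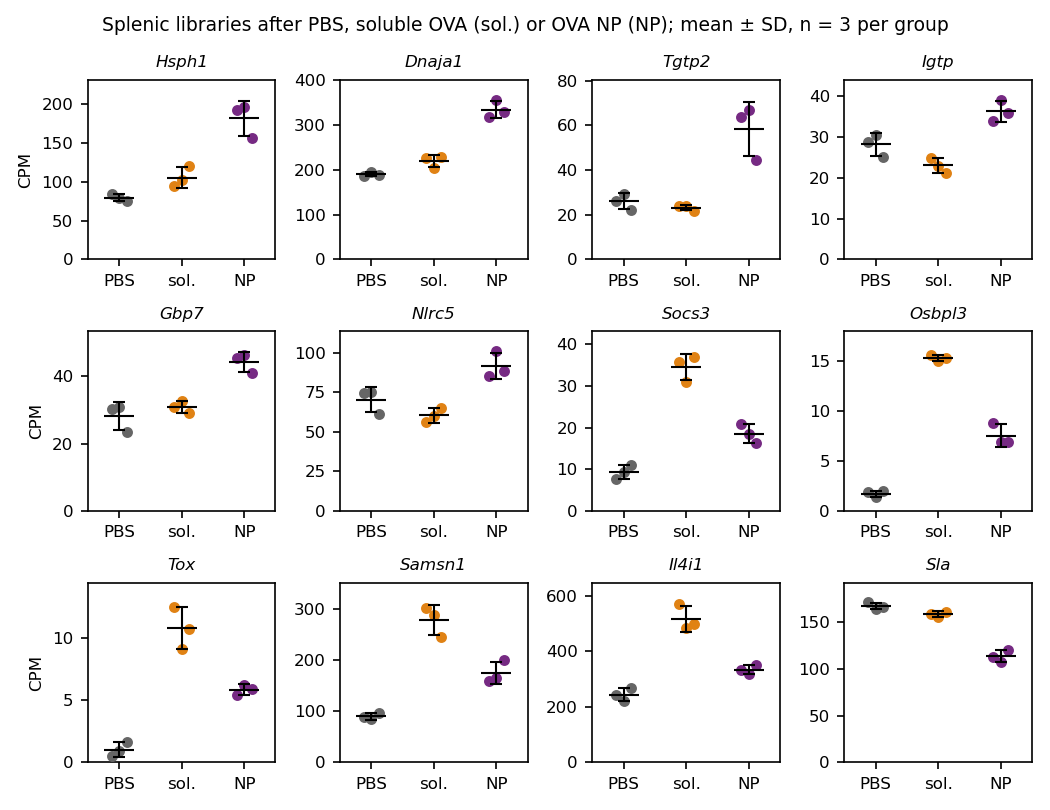
Each panel shows 1 gene in the 9 splenic libraries (gray PBS, orange soluble OVA, purple OVA NP) as CPM on axes from 0, with mean ± SD, n = 3 per group. In the first 6 panels OVA NP libraries lie above both other groups, and in *Socs3*, *Osbpl3*, *Tox*, *Samsn1*, and *Il4i1* they lie between PBS and soluble OVA.

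The splenic response was also compared with that of Peyer's patch B cells from OVA NP– and PBS-treated mice, a gut-associated site where germinal centers are always present. A test of the difference between the tissues' effects, over 16619 genes, called 589 (3.54%) more positive in spleen and 145 (0.872%) more negative. Of the former, 463 were also called higher in spleen, and of the latter 89 were called lower there. *Eaf2* changed by 2.40 in spleen and -0.01 in Peyer's patches (difference 2.40 ± 0.25 SE, adjusted p = 0.000534). *Nek2* changed by 1.64 and -0.32 (difference 1.94 ± 0.18, adjusted p = 0.000275). *Lifr* changed by 3.07 and 0.72 (difference 2.33 ± 0.16, adjusted p = 1.11e-05). *Il5ra* changed by -1.03 and 0.23 (difference -1.29 ± 0.25, adjusted p = 0.0124). For other genes the difference between tissues was not called. *Hsph1* changed by 1.20 and 0.98 (difference 0.20 ± 0.17, adjusted p = 0.581), and *Cirbp* by -0.87 and -0.51 (difference -0.38 ± 0.12, adjusted p = 0.0779). The same held for *Klf2* (-0.49 and -0.50) and *Cxcr5* (-0.38 and -0.55), with differences of -0.01 ± 0.32 and 0.16 ± 0.13. A difference that was not called does not show equal effects, and that of *Klf2* was imprecise. The first count was 243 to 387 without spleen OVA NP replicate 1 or 2, spleen PBS replicate 1 or 2, Peyer's patch OVA NP replicate 1 or 2, or Peyer's patch PBS replicate 1. The second was 45 to 86 without spleen OVA NP replicate 1 or 2, any spleen PBS library, or Peyer's patch PBS replicate 1, and 283 without Peyer's patch PBS replicate 2.

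Gene type and length went with direction. Called higher genes had a median exon length of 3542 bases and called lower genes 4597 bases, against 4025 over all genes tested. In the shortest of 3 equal length classes 10.0% of genes were called higher and 4.21% lower, and in the longest 7.09% and 7.62%. Protein-coding genes were called higher in 1157 and lower in 784 of 11962. Long intergenic noncoding RNAs went mostly the other way, with 8 higher and 32 lower of 299, as did antisense genes, with 2 higher and 28 lower of 393. The sources do not say whether counting used strand, so reads of an antisense gene and its partner may not be separable. Processed pseudogenes were higher in 18 and lower in 3 of 359, and many copy expressed parent genes whose reads they can share.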

How the data were processed

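Bulk poly(A) RNA-Seq libraries were sequenced paired-end from enriched B cells of both organs. Per the submitters' processing notes, the tools were cutadapt 2.3, FastQC 0.11.8, STAR 2.7.8a, RSEM 1.3.3, and MultiQC 1.7, on GRCm38. The deposited values were RSEM expected counts per gene, not normalized, which the authors made per library and which were already whole numbers. Whether counting used strand is not given in the sources used here. Genes with low counts were removed by filterByExpr, and TMM normalization and the robust quasi-likelihood F test of edgeR 4.0.16 (R 4.3.3) were applied to the libraries of each comparison, with Benjamini-Hochberg adjustment over all genes tested. The tissue difference was an interaction term, called at an adjusted p below 0.05 alone. Scripts were tested on simulated data.

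Gene lists (49 by function, 20 by cell type) and the genes named were chosen with earlier results of these data known. Named genes are list members (up to 4 called members per direction with the largest change, the first 3 as listed, and others given for their role) and, over the whole table, genes with the largest change or smallest p. Genes picked over the whole table had to have a mean of at least 1 CPM and groups that did not overlap. Genes given in the comparison with soluble OVA were chosen after their values were seen. Promoter windows came from RefSeq (GRCm38.p6). A window was found for 10118 of 14200 genes, and for the 2022 of these with several entries the first was used. Alternatives were DESeq2 1.42.0, its size factors, other count filters, a replicate block, all 9 spleen libraries in the fit, no antigen receptor genes, and each library left out. Peyer's patch libraries given soluble OVA were not used here, and some list members are not reported here.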

Additional observations from a re-analysis of the deposited data

Results flagged for a closer look

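For the following genes the effect of OVA NPs in spleen differed from that in Peyer's patches, by edgeR's test of the tissue-by-treatment interaction (adjusted p below 0.05 over 16619 genes). Values are spleen minus Peyer's patch differences of the log2 fold changes, and the genes given are those named above that were called in spleen. Of germinal center, plasma cell, and repair genes, the difference was above 0 for *S1pr2* (3.00), *Mybl1* (2.52), *Mef2b* (2.79), *Neil1* (1.19), *Hmces* (1.43), *Exo1* (1.21), *Polh* (1.02), *H2ax* (1.16), *Eaf2* (2.40), *Xbp1* (0.53), and *Jchain* (1.07). Of division and chromatin genes, the difference was above 0 for *Mki67* (1.61), *Nek2* (1.94), *Top2a* (1.53), *Ncapg* (1.54), *Kif23* (1.69), *Esco2* (1.73), *Ccne2* (1.14), *Rrm2* (1.41), *Uhrf1* (1.46), *Pola1* (0.88), *Cdkn2c* (1.21), *Ccnd3* (0.68), and *Ezh2* (0.81). Of metabolism, translation, folding, and proteasome genes, the difference was above 0 for *Psat1* (1.02), *Gapdh* (0.74), *Ldha* (0.46), *Idi1* (0.98), *Sqle* (1.16), *Fdps* (0.94), *Cyp51* (0.92), *Txn1* (0.67), *Rpl24* (0.49), *Rps26* (0.40), *Eif4e* (0.43), *Sdf2l1* (0.87), *Psmd14* (0.50), and *Psmb9* (0.44). Of signaling, surface, and other genes with a more positive effect in spleen, the difference was above 0 for *Lifr* (2.33), *Gnaz* (3.32), *Bcat1* (2.96), *Bmpr1a* (2.60), *Slpi* (3.71), *Tox* (2.61), *Osbpl3* (2.19), *Samsn1* (1.03), *Il4i1* (0.68), *Socs1* (1.09), *Socs2* (1.94), *Cd83* (1.40), *Havcr1* (1.59), and *Bak1* (0.52). The difference was below 0 for *Ace* (-2.92), *Asb2* (-1.35), *Btla* (-0.56), *Il5ra* (-1.29), *Il9r* (-0.65), and *Sgk1* (-1.22). None of these 58 differences changed sign under any alternative run. They were picked by their adjusted p, so a change of sign was unlikely from the start and its absence is weak support. Of the 58, 32 kept an adjusted p below 0.05 with the replicate number within each tissue as a block, and 37 kept it with each of the 12 libraries left out in turn. Both held for 27, *Lifr*, *Nek2*, *Eaf2*, and *Cd83* among them. *Mybl1* kept it in 1 of the 12 omissions, *Eif4e* in 2, and *Ace*, *Neil1*, *Txn1*, and *Il4i1* in 3. In spleen alone the call of *Mef2b* against PBS was lost in 5 of 6 omissions, as were those of *S1pr2* and *Mybl1*.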

How the results depend on the processing

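No called difference between OVA NPs and PBS among the 114 named genes that were called changed sign under any alternative run, whereas 7 of the 21 named genes that were not called did. Nearly all called genes had groups that did not overlap, so leaving out a library could hardly reverse them. The contrast with genes whose changes lay near 0 therefore does not measure robustness. Between OVA NPs and PBS in spleen, leaving out each library in turn gave 931 to 1713 higher and 593 to 1176 lower genes. For OVA NPs against soluble OVA, DESeq2 called 45 higher and 38 lower, no count filter gave 127 and 103, and leaving out each library gave 0 to 25 and 0 to 23. For the difference between tissues, DESeq2 called 891 more positive and 365 more negative. The more negative count was 346 with no count filter and 236 with at least 10 counts in every library. Leaving out each library gave 243 to 671 and 45 to 283. The germinal center list held 7 called genes with no count filter and 4 to 12 with each library left out, and the marginal zone list 2 to 8. The cause of these shifts was not tested.

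Replicate numbers are shared between groups, but nothing in the labels ties them to a litter or day, and deviations of same-numbered libraries correlated at 0.0818, -0.0362, and -0.113, so they were not treated as pairs. Between the Peyer's patch groups the values were 0.0855, 0.143, and -0.0835, and between spleen and Peyer's patch libraries of the same treatment and number they ran from -0.0511 to 0.109. In the comparison of tissues the block was the number within each tissue. With the replicate number as a block, 1239 genes were higher and 858 lower between OVA NPs and PBS, 19 and 13 against soluble OVA, 198 and 46 for the difference between tissues, and 4 in the germinal center list. Low counts limit the precision of *Socs2*, *Slc4a1*, and *Gnaz*, with PBS libraries near or below 1 CPM.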
